A study of Mus musculus with 11 samples.

Results

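The circadian clock genes examined here are Arntl (which encodes BMAL1), Clock, Per1, Per2, Per3, Cry1, Cry2, Nr1d1, Nr1d2 and Dbp. They were found by their symbols in the gene tables of 11 mouse islet libraries, and all 10 were present among 55536 genes in each table. All 10 also passed the filter on low counts in every comparison. Bulk RNA-seq was performed on polyadenylated RNA of whole pancreatic islets from wild type C57BL/6J female mice. Mice were 9 weeks old when they were assigned to a group. Virgin mice were compared with littermates that had gone through 3 pregnancies (multipara), from which islets were taken 3 weeks after the last delivery. Part of each parity group was injected with S-961, a peptide antagonist of the insulin receptor, for 3 days. The groups held 2 untreated virgin, 2 untreated multipara, 3 virgin S-961 and 4 multipara S-961 libraries. No genetic change or transgene was used in any of them. Whether a library came from 1 animal or a pool of animals is not given in the sources used here, so the spread between libraries may be partly technical.

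In the mammalian clock, BMAL1 and CLOCK bind as a pair to E-box sequences and switch on the Per and Cry genes, whose proteins return to block that pair. The same pair drives Nr1d1 and Nr1d2, nuclear receptors (REV-ERB alpha and beta) that repress Arntl, and Dbp, a transcription factor that acts at D-box sequences. In islets this loop is known for its part in the timing of insulin secretion, and over a day Arntl transcripts run roughly opposite to those of Nr1d1 and Dbp. The hour at which islets were collected is not given in the sources used here. For these genes a difference in hour therefore cannot be told apart from a difference in treatment or parity.

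The short sequences below show where the loop's elements lie beside 5 of the genes, read from RefSeq promoter entries on build GRCm38.p6. Each is given 5′ to 3′ on the strand of its gene, with the motif in capitals. Each lies upstream of a RefSeq transcript start and outside the annotated exons of its own gene. The Per1 stretch lies inside the annotated span of Per1 (chr11:69095217-69109960), so it is upstream of an internal start only. The capitals mark CACGTG (E-box), AACGTG, which is CACGTT on the other strand (E′-box), or TTATGTAA (D-box). The stretches are Cry1 at chr10:85185089-85185153 (minus strand), Cry2 at chr2:92434210-92434255 (minus), Nr1d1 at chr11:98775380-98775425 (minus), Per1 at chr11:69098763-69098808 (plus) and Per3 at chr4:151044796-151044890 (minus).
Cry1: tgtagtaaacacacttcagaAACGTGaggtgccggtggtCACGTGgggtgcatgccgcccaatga
Cry2: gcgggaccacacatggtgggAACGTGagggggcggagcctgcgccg
Nr1d1: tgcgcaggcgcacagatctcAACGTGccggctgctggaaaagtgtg
Per1: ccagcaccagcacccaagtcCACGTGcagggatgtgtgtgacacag
Per3: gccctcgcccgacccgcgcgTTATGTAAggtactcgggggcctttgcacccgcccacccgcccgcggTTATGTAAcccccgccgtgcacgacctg
The search covered 250 bases upstream of each start with a promoter entry, on both strands. Per2 was not searched. CACGTG was present in 6.02% of 32851 promoters, CACGTT in 3.85%, and a D-box (TTATGTAA, TTATATAA, TTACATAA or TTACGTAA) in 1.43%. Among the 13 windows of the other 9 clock genes, 2 held an E-box, 3 an E′-box and 1 a D-box, and the cAMP response element TGACGTCA, present in 1.55% of promoters, was in 0 of them. A match is a description of these letters and not a measured binding site.

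Libraries held 22028507 to 32234146 counts, with a median of 29866486. The insulin genes accounted for 35.3% to 41.4% of all counts without S-961 and for 13.2% to 20.7% with it. Levels are therefore given as CPM, in which a gene's count is divided by its library's TMM-adjusted size so that most genes do not move. Lrrc55, a gene raised in pregnant islets, was at 0.727 and 0.847 CPM in untreated virgin and at 24.9 and 22.8 CPM in untreated multipara. With S-961 the order was the opposite, at 7.54, 6.82 and 5.34 CPM in the libraries labelled virgin and 0.596, 0.32, 1.96 and 4.43 CPM in those labelled multipara. Lrrc55 thus goes against the parity labels of the S-961 libraries, which may be exchanged in whole or in part. The labels are used below as deposited, so virgin and multipara with S-961 mean the libraries labelled so. The S-961 effects within virgin and within multipara, the interaction and the parity comparison with S-961 all rest on these labels. The S-961 effect averaged over parity is the mean over groups as labelled, so an exchange in part would change it and its spread. Mki67, a proliferation marker, was at 93.9, 65.5, 43.5 and 3.93 CPM in multipara S-961 libraries 1 to 4, and at 3.43, 13.9 and 3.04 CPM in the virgin S-961 libraries. Library 4 of multipara S-961 was thus close to the virgin S-961 libraries in both genes. Chi-square per gene, which is smaller the more alike the counts of 2 libraries are, gives their likeness over many genes. Library 4 was at 9.8 and 11.8 against virgin S-961 libraries 1 and 2, and at 45.6 against virgin library 3. Against multipara S-961 libraries 1 to 3 it was at 58.2, 80.3 and 95.9. Virgin S-961 libraries 1 and 2 were at 9.41 from each other, and at 58.7 and 64.5 from library 3. Library 3 of multipara S-961 stood apart in several clock genes. Several results that rest on either multipara library are given with and without it.

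Across the whole set, S-961 libraries had about double the Clock, Per1 and Nr1d2 level of untreated libraries, a still larger rise in Per2, and a lower Cry2 level. With parity averaged, 7 of the 10 genes passed an adjusted p of 0.05 in edgeR's quasi-likelihood test, 5 higher and 2 lower. In that comparison 52.1% of the 17996 genes tested were called, so such a call was common among all genes. Within virgin mice 5 of 10 were called (background 36.5%), and within multipara mice 5 of 10 (background 37.6%). The same 5 genes were called in both: Clock, Per1, Per2 and Nr1d2 were higher and Cry2 was lower. These 5 were also the genes whose 7 S-961 libraries did not overlap the 4 untreated libraries, a separation seen in 36.4% of all genes tested.

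**Figure D1:**
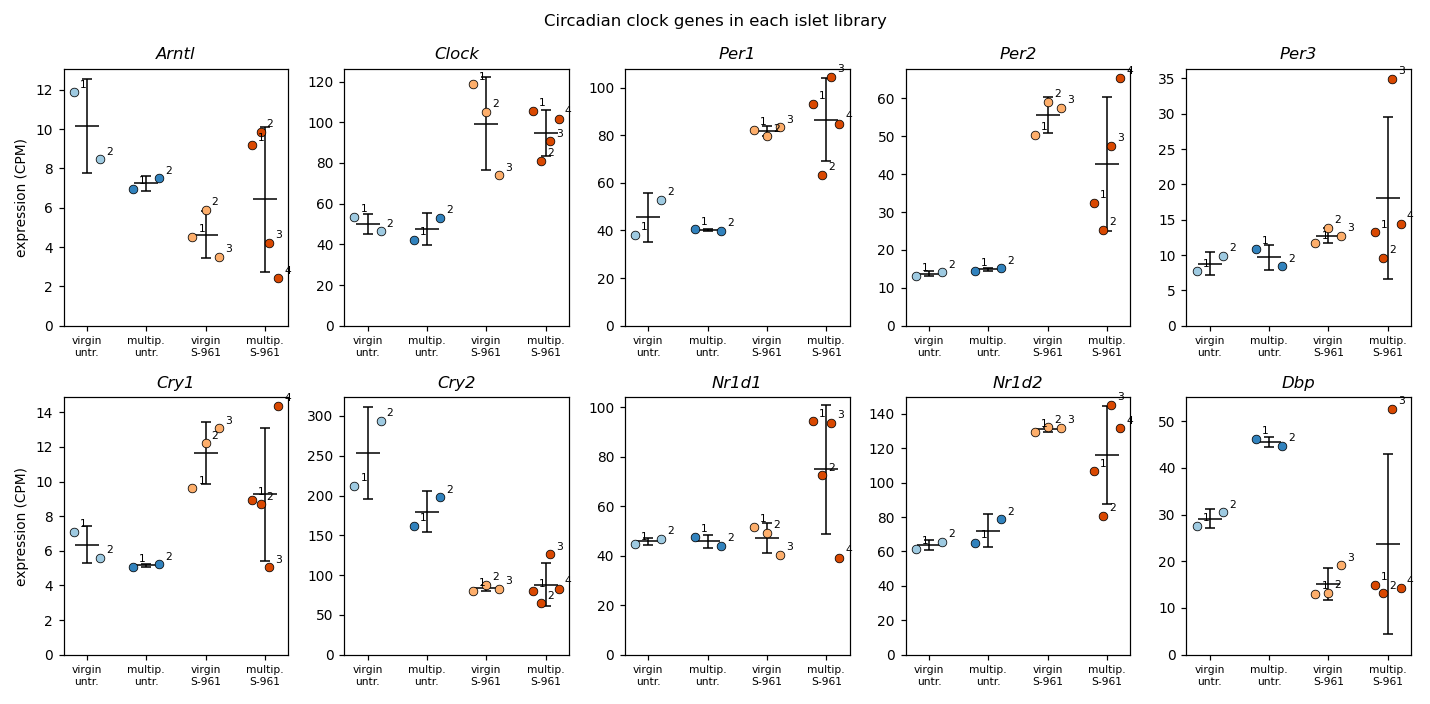
Expression in CPM (linear axes from 0) of the 10 clock genes in the 11 libraries, with 1 point per library, its replicate number beside it, and a bar and whisker for the group mean ± SD. Clock, Per1, Per2 and Nr1d2 sit higher in all 7 S-961 libraries than in the 4 untreated ones and Cry2 sits lower, while multipara S-961 library 3 lies far above its group in Dbp at 52.7 CPM.

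The activators moved unequally. Clock, the DNA-binding partner of BMAL1, was at 53.5 and 46.5 CPM in untreated virgin and 42.2 and 53.2 CPM in untreated multipara libraries. With S-961 it was at 119, 105 and 74.0 CPM in virgin and 106, 81.0, 90.6 and 102 CPM in multipara. Every S-961 library was above every untreated one, and the parity groups were intermingled within each treatment. Averaged over parity Clock rose by 0.99 on the log2 scale (SE 0.14, adjusted p = 0.000226), with 0.99 in virgin (SE 0.21, adjusted p = 0.00412) and 0.99 in multipara (SE 0.20, adjusted p = 0.0035). The call in virgin rests on few untreated libraries, since without untreated virgin library 2 the adjusted p was 0.0569.

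Arntl was the least abundant of the 10 genes per length over all 11 libraries. It was at 11.9 and 8.47 CPM in untreated virgin and 6.97 and 7.501 CPM in untreated multipara libraries. In S-961 libraries it was at 4.51, 5.88 and 3.49 CPM (virgin) and at 9.16, 9.86, 4.22 and 2.42 CPM (multipara). The 3 virgin S-961 libraries were below all untreated ones, whereas multipara S-961 libraries 1 and 2 were inside the untreated range and library 4 was the lowest of the 11. The averaged difference was -0.65 (SE 0.34, adjusted p = 0.13), that in virgin -1.13 (SE 0.49, adjusted p = 0.0948) and that in multipara -0.17 (SE 0.47, adjusted p = 0.795), so none was called. In virgin the adjusted p was 0.0309 without multipara S-961 library 4, which is not part of that contrast but shares its estimate of spread (37.3% of all genes were then called).

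Among the repressors, Per2 had the largest difference of the 10. It was at 13.2 and 14.1 CPM in untreated virgin and 14.5 and 15.2 CPM in untreated multipara libraries. With S-961 it was at 50.4, 59.1 and 57.6 CPM in virgin and 32.5, 25.4, 47.5 and 65.3 CPM in multipara. The untreated libraries were close together, and the lowest S-961 value, in multipara library 2, was still above all of them. Per2 rose by 1.77 on the log2 scale averaged over parity (SE 0.23, adjusted p = 0.000114), by 2.02 in virgin (SE 0.34, adjusted p = 0.00129) and by 1.52 in multipara (SE 0.32, adjusted p = 0.00436).

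Per1, a period gene that outside signals can induce directly, was at 38.1 and 52.8 CPM in untreated virgin and 40.5 and 39.9 CPM in untreated multipara libraries. With S-961 it was at 82.4, 79.5 and 83.3 CPM in virgin and 93.3, 63.3, 104 and 84.7 CPM in multipara. The groups did not overlap between treatments. Averaged over parity it rose by 0.97 (SE 0.14, adjusted p = 0.000218), with 0.85 in virgin (SE 0.20, adjusted p = 0.00812) and 1.10 in multipara (SE 0.20, adjusted p = 0.00183). Without untreated virgin library 1 the rise in virgin was 0.63 (adjusted p = 0.0993) and was no longer called.

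Per3, whose upstream stretch holds a pair of D-boxes, was at 7.69 and 9.92 CPM (untreated virgin), 10.9 and 8.45 CPM (untreated multipara), 11.7, 13.9 and 12.7 CPM (virgin S-961), and 13.2, 9.60, 35.0 and 14.4 CPM (multipara S-961). Multipara S-961 library 3 was more than double any other library, and library 2 of that group lay within the untreated range. The averaged difference of 0.72 (SE 0.31) was not called at an adjusted p of 0.0757. Without library 3 it was smaller, 0.45, but the adjusted p was 0.0263.

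The cryptochromes, which carry the repression of BMAL1 and CLOCK, went in opposite directions. Cry1 was at 7.12 and 5.60 CPM in untreated virgin, 5.09 and 5.23 CPM in untreated multipara, 9.61, 12.2 and 13.1 CPM in virgin S-961 and 8.95, 8.70, 5.04 and 14.4 CPM in multipara S-961. Multipara S-961 library 3 had the lowest value of all 11, and the 6 other S-961 libraries were above every untreated one. Averaged over parity Cry1 rose by 0.86 (SE 0.25, adjusted p = 0.0138), a call that was lost without untreated virgin library 2 (adjusted p = 0.0641). It was not called within virgin (0.87, adjusted p = 0.0777) or within multipara (0.84, adjusted p = 0.0767).

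Cry2 was at 212 and 294 CPM in untreated virgin and 162 and 198 CPM in untreated multipara libraries. With S-961 it was at 80.3, 88.0 and 82.6 CPM in virgin and 79.5, 64.6, 126 and 82.5 CPM in multipara. All S-961 libraries were below all untreated ones, and the highest of them was multipara S-961 library 3. The averaged difference was -1.31 (SE 0.17, adjusted p = 9.81e-05), that in virgin -1.60 (SE 0.25, adjusted p = 0.000888) and that in multipara -1.03 (SE 0.23, adjusted p = 0.00586). The multipara call was lost without untreated multipara library 2 (-0.87, adjusted p = 0.0534). Cry2 shares 4.67% of its exonic bases with D930015M05Rik on the opposite strand, a gene with 317 counts in all libraries against 40518 for Cry2.

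The nuclear receptor genes differed from each other. Nr1d2 was at 61.7 and 65.7 CPM in untreated virgin and 65.2 and 78.8 CPM in untreated multipara libraries. With S-961 it was at 129, 132 and 132 CPM in virgin and 106, 80.8, 145 and 131 CPM in multipara. The virgin S-961 libraries were nearly equal, and multipara S-961 library 2 came close to the highest untreated value. Nr1d2 rose by 0.87 averaged over parity (SE 0.15, adjusted p = 0.000679), by 1.04 in virgin (SE 0.22, adjusted p = 0.00402) and by 0.69 in multipara (SE 0.21, adjusted p = 0.0229). The multipara call held in 15 of 20 alternatives. Those that lost it include leaving out untreated multipara library 1 or library 2, and leaving out both multipara S-961 libraries 3 and 4 (adjusted p = 0.0694). It was also lost with only the compared groups in the fit (adjusted p = 0.0833).

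Nr1d1 lay within 44.1 to 47.7 CPM in all 4 untreated libraries. In virgin S-961 it was at 51.7, 49.2 and 40.4 CPM, and in multipara S-961 at 94.4, 72.5, 93.7 and 39.0 CPM. Multipara S-961 libraries 1, 2 and 3 were above all others, and library 4 was the lowest of the 11. Averaged over parity the difference was 0.37 (SE 0.21, adjusted p = 0.153), in virgin 0.04 (SE 0.30, adjusted p = 0.929) and in multipara 0.71 (SE 0.29, adjusted p = 0.0779). Without multipara S-961 library 4 the averaged difference was 0.48 (adjusted p = 0.00506) and that in multipara 0.92 (adjusted p = 0.00249), both called, as were 51.1% and 35.8% of all genes. Nr1d1 shares 8.55% of its exonic bases with Thra on the opposite strand, and the strand setting of the counting is not given in the sources used here, so reads of that stretch may belong to either gene.

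Dbp, the output gene of the loop, was at 27.6 and 30.5 CPM in untreated virgin and 46.2 and 44.8 CPM in untreated multipara libraries. It was at 13.01, 13.3 and 19.2 CPM in virgin S-961 and 14.9, 13.2, 52.7 and 14.2 CPM in multipara S-961. The 6 S-961 libraries other than multipara library 3 were below every untreated library, and library 3 was the highest of the 11. The averaged difference of -0.94 (SE 0.35) only just passed, at an adjusted p of 0.0453, and it was lost when any of 9 libraries was left out, with adjusted p of 0.0687 to 0.112, and in DESeq2 (adjusted p = 0.0601). Without multipara S-961 library 3 the averaged difference was -1.31 with an adjusted p of 1.3e-05, in a comparison where 56.1% of all genes were called. Within virgin Dbp was at -0.94 (adjusted p = 0.182) and within multipara at -0.94 (adjusted p = 0.148), so it was called in neither. It was called in 4 of 20 alternatives in virgin and in 3 of 20 in multipara. Dbp shares 18.0% of its exonic bases with Sphk2 on the opposite strand, so part of its counts is uncertain in the same way.

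**Figure D2:**
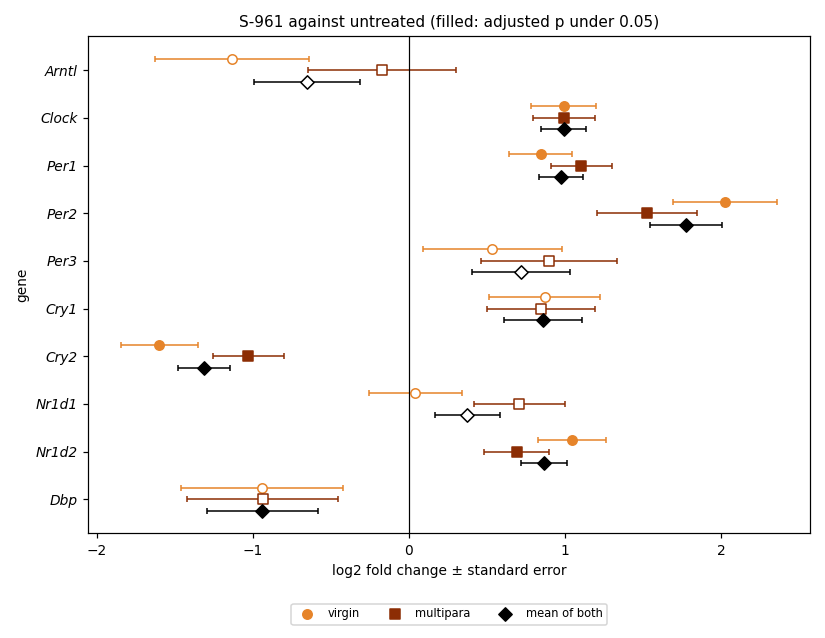
Log2 fold change with S-961 against untreated (horizontal axis, ± SE) for each clock gene in virgin mice, in multipara mice and as their mean, with filled symbols where the adjusted p was under 0.05. Clock has 0.99 in both parity groups, Per2 lies farthest to the right at 1.77 in the mean, and Cry2 lies farthest to the left at -1.31.

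The difference between the S-961 effects in libraries labelled multipara and virgin was tested as an interaction. It was called for 0 of 10 clock genes and for 0 of 17996 genes in all (background 0%), with 1179 genes at an unadjusted p under 0.05 and 88 called by DESeq2. Among the clock genes the estimate was 0.67 for Nr1d1 (SE 0.41, adjusted p = 0.809), 0.57 for Cry2 (SE 0.34, adjusted p = 0.807), -0.50 for Per2 (SE 0.43, adjusted p = 0.878) and 0.96 for Arntl (SE 0.69, adjusted p = 0.85). These standard errors leave room for differences of the size seen, so the effects in virgin and multipara are not shown to be alike.

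Without S-961, the comparison of multipara with virgin islets called 0 of 10 clock genes and 0 of 15812 genes tested (background 0%), with 889 at an unadjusted p under 0.05. With 2 libraries a group, 5 clock genes had groups that did not overlap, where 36% of all genes did. Per2 and Dbp were higher in multipara, and Arntl, Cry1 and Cry2 were lower. The difference was largest in Dbp, at 0.65 (SE 0.09, unadjusted p = 0.00142, adjusted p = 0.719). DESeq2 called it (0.65, adjusted p = 0.0108), in a comparison in which it called 55 genes or 0.344% of those tested, and edgeR did so without untreated multipara library 2 (0.68, adjusted p = 0.00576), where 10.3% of all genes were called. Arntl differed by -0.48 (SE 0.22, adjusted p = 0.719) and Cry2 by -0.49 (SE 0.19, adjusted p = 0.719), while Nr1d1 differed by 0.01 (SE 0.09, adjusted p = 0.982). Library 1 of untreated multipara stood apart from library 2 in the summed level of 5 immune markers (172 against 18.3 CPM), of 2 red cell markers (1094 against 227 CPM) and of 8 proliferation genes (107 against 10.3 CPM). The part of these cells in the differences was not tested.

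With S-961, multipara against virgin as labelled called 0 of 10 clock genes and 0 of 16784 genes (background 0%), with 1630 at an unadjusted p under 0.05 and 339 called by DESeq2. In each of the 10 genes the multipara libraries overlapped the virgin libraries, where 8.87% of all genes did not overlap. Nr1d1 had the largest difference, 0.69 (SE 0.28, adjusted p = 0.477), with 3 of 4 multipara libraries above all virgin ones. Without multipara library 4 it was 0.91 (SE 0.16, adjusted p = 0.0222) and was called, as were 3.16% of all genes. In that comparison Per2 was at -0.64 (adjusted p = 0.202). Libraries 3 and 4 were also left out together, an alternative chosen because they stood apart in the clock genes themselves. Nr1d1 was then at 0.84 (adjusted p = 0.0302) and Per2 at -0.93 (adjusted p = 0.0174), and 3.92% of all genes were called. Arntl was at 1.05 and not called (adjusted p = 0.0529). Because clock gene values chose the libraries left out, these calls give no support to a parity difference.

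**Figure D3:**
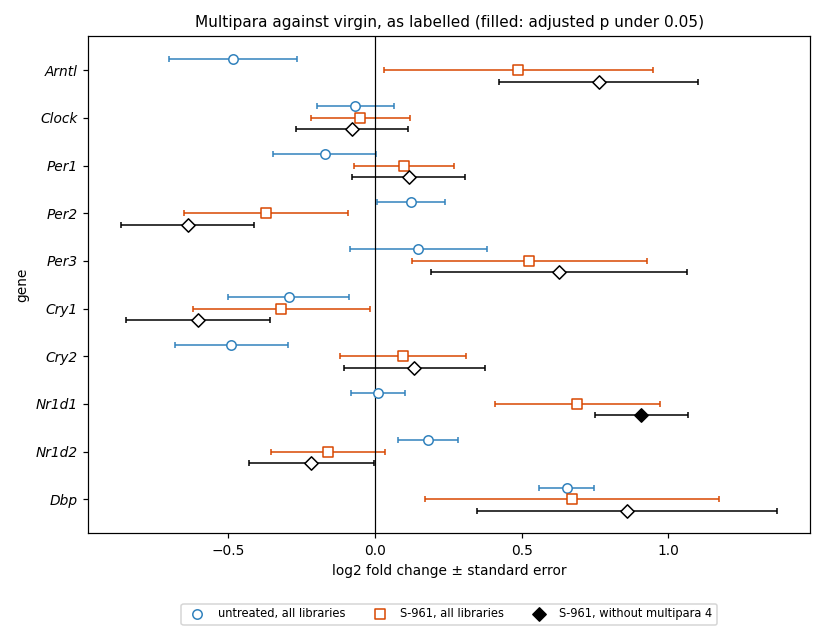
Log2 fold change of multipara against virgin as labelled (horizontal axis, ± SE) for each clock gene, in untreated libraries, in S-961 libraries, and in S-961 libraries without multipara library 4, with filled symbols where the adjusted p was under 0.05. The single filled symbol is Nr1d1 at 0.91, and untreated Dbp stands at 0.65 with a small SE.

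The S-961 libraries labelled multipara did not share a common clock gene pattern. Libraries 1 and 2 combined the highest Arntl of the S-961 libraries with the lowest Per2. Their Dbp was 1.63 and 1.34 times the Arntl level in CPM. Dbp itself, at 14.9 and 13.2 CPM in them, was also low in library 4 (14.2 CPM) and in virgin S-961 (13.01 to 19.2 CPM). Library 3 had the highest Per1, Per3, Cry2, Nr1d2 and Dbp of the S-961 libraries with the lowest Cry1, and its Dbp was 12.5 times Arntl. Library 4 had the lowest Arntl and Nr1d1 and the highest Per2 and Cry1, with Dbp at 5.85 times Arntl. In virgin S-961 this ratio was 2.88, 2.26 and 5.49, in untreated virgin 2.33 and 3.60, and in untreated multipara 6.63 and 5.97. Ratios between genes in CPM are not corrected for length and serve only to compare libraries. Nr1d1 was high in the multipara S-961 libraries with high Mki67 and low in library 4. In untreated multipara library 1 Mki67 was at 38.6 CPM and Nr1d1 at 47.7 CPM. The part of proliferation in the Nr1d1 levels was not tested.

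**Figure D4:**
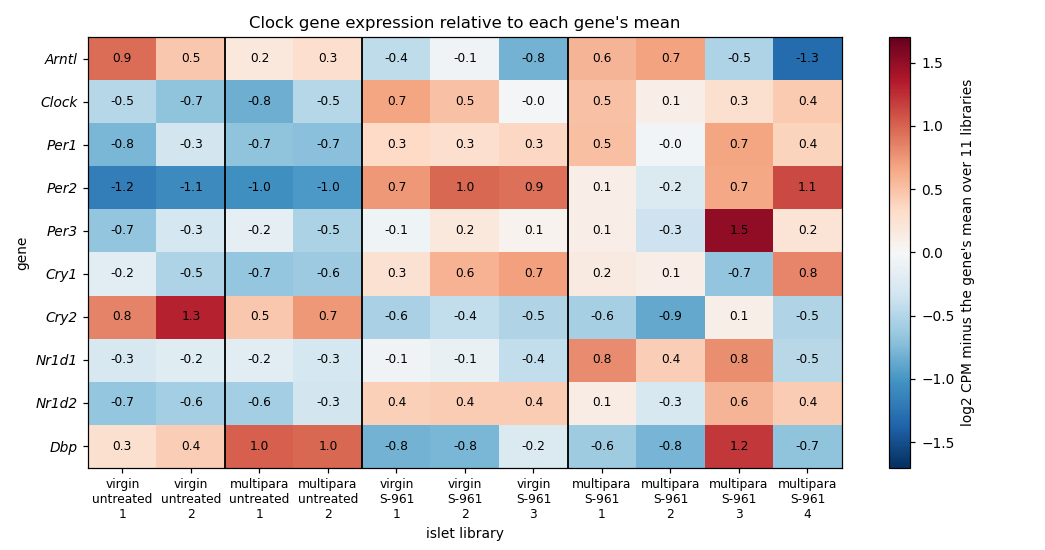
Log2 CPM of each clock gene (rows) in each of the 11 libraries (columns) after subtraction of the gene's mean over the libraries, with the value printed in each cell and red for higher. Per2 is negative in the 4 untreated libraries, Cry2 is positive in them, and multipara S-961 library 3 is red in Per3 and Dbp where most other S-961 libraries are pale or blue.

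Levels between genes were compared per kilobase of exonic length. In untreated libraries Cry2 was highest at 34.3 CPM per kilobase, followed by Nr1d1 at 14.9, Nr1d2 at 12.5, Dbp at 12.5 and Per1 at 7.61. Clock was at 3.56, Per2 at 2.44, Cry1 at 1.72, Arntl at 1.16 and Per3 at 0.962 CPM per kilobase. Along Nr1d1, Nr1d2, Dbp and Per1 the ranges over libraries overlapped between neighbours, as they did along Cry1, Arntl and Per3. All genes were measured in the same libraries and their order within each library was not tested. Overlap of ranges therefore does not show that neighbours were alike. With S-961 the order was led by Nr1d2 at 22.6 CPM per kilobase, then Nr1d1 at 20.5, Per1 at 14.99, Cry2 at 13.6, Per2 at 8.24, Clock at 7.04, Dbp at 6.70, Cry1 at 3.08, Per3 at 1.64 and Arntl at 0.751. There every gene overlapped the next in the order except Dbp and Cry1. Between the treatments Cry2 moved from the top to below Nr1d2, Nr1d1 and Per1, and Per2 passed Dbp and Clock. These lengths count every annotated exon, so genes with long or rarely used exons appear lower.

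Of 22 further clock genes, 21 were tested (Rorb was too low), and averaged over parity 4 were higher and 5 lower with S-961, with 12 not called and a median log2 fold change of 0.14 against -0.01 for all genes. The share called was below the 52.1% of all genes. Arntl2, a relative of Arntl that can also pair with CLOCK, rose by 2.005 (adjusted p = 0.000533), from 1.07 to 1.77 CPM in untreated to 2.11 to 7.47 CPM in S-961 libraries. Bhlhe40, a repressor that competes at E-boxes, rose by 1.42 (adjusted p = 0.000212). Wee1, a cell cycle kinase gene under clock control, rose by 1.11 (adjusted p = 9.43e-05), and Fbxl21, which helps set cryptochrome stability, by 0.84 (adjusted p = 0.0214). Noct, an output gene, fell by 0.78 (adjusted p = 0.000414) and Hlf, a relative of Dbp, by 0.60 (adjusted p = 0.0177). Csnk1d, a kinase of the PER proteins, fell by 0.30 (adjusted p = 0.00562) and Btrc, which marks PER proteins for degradation, by 0.22 (adjusted p = 0.0454).

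The immediate early genes, which respond within a short time to cell stimulation, and targets of glucocorticoid hormone also moved with S-961. Of 12 immediate early genes 10 rose and 0 fell averaged over parity, where 52.1% of all genes were called, and their summed level was 1272 to 2020 CPM in untreated and 3004 to 5322 CPM in S-961 libraries. Nr4a1, an orphan nuclear receptor gene, was at 15.2 to 19.4 CPM in untreated and 277 to 538 CPM in S-961 libraries. Of 10 glucocorticoid targets 3 rose (Dusp1, Sgk1 and Klf9) and 6 fell (Fkbp5, Mt1, Mt2, Tsc22d3, Zbtb16 and Lcn2), against the same 52.1%. The fall in Lcn2 rests on library 1 of untreated virgin and of untreated multipara, at 9.95 and 6.30 CPM. Library 2 of these groups was at 0.605 and 0.189 CPM, inside the S-961 range of 0.0291 to 2.08 CPM. Fkbp5, a chaperone of the glucocorticoid receptor, was at 170 to 245 CPM in untreated and 41.1 to 80.4 CPM in S-961 libraries. The part of these lists in the clock gene differences was not tested.

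Markers of other cells moved with S-961 beside the clock genes. The summed level of 8 acinar genes was 42.1 to 108 CPM in untreated and 1440 to 10222 CPM in S-961 libraries. All 8 rose, and Ptf1a, the defining acinar transcription factor, was at 0 in 2 untreated libraries and at 0.118 to 1.65 CPM in S-961 libraries. The lowest summed S-961 value, 1440 CPM, was in virgin library 3. There Clock was at 74.0 CPM, the lowest of the S-961 libraries, and Per2 was at 57.6 CPM. In the same library Per1 was at 83.3 CPM, Nr1d2 at 132 CPM and Cry2 at 82.6 CPM. Beta cell markers, dominated by insulin, summed to 455162 to 612554 CPM in untreated and 120267 to 226035 CPM in S-961 libraries. Alpha cell markers summed to 26313 to 57241 CPM in untreated and 14150 to 24353 CPM in S-961 libraries, and duct markers to 47.6 to 72.9 CPM and 89.1 to 156 CPM. Delta cell sums did overlap, at 3314 to 6097 CPM and 1877 to 3387 CPM, and so did proliferation sums, at 10.3 to 107 CPM and 12.4 to 331 CPM. In bulk islets fewer cells of a type and less RNA per cell cannot be told apart, and the part of cell makeup in the clock gene differences was not tested.

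**Figure D5:**
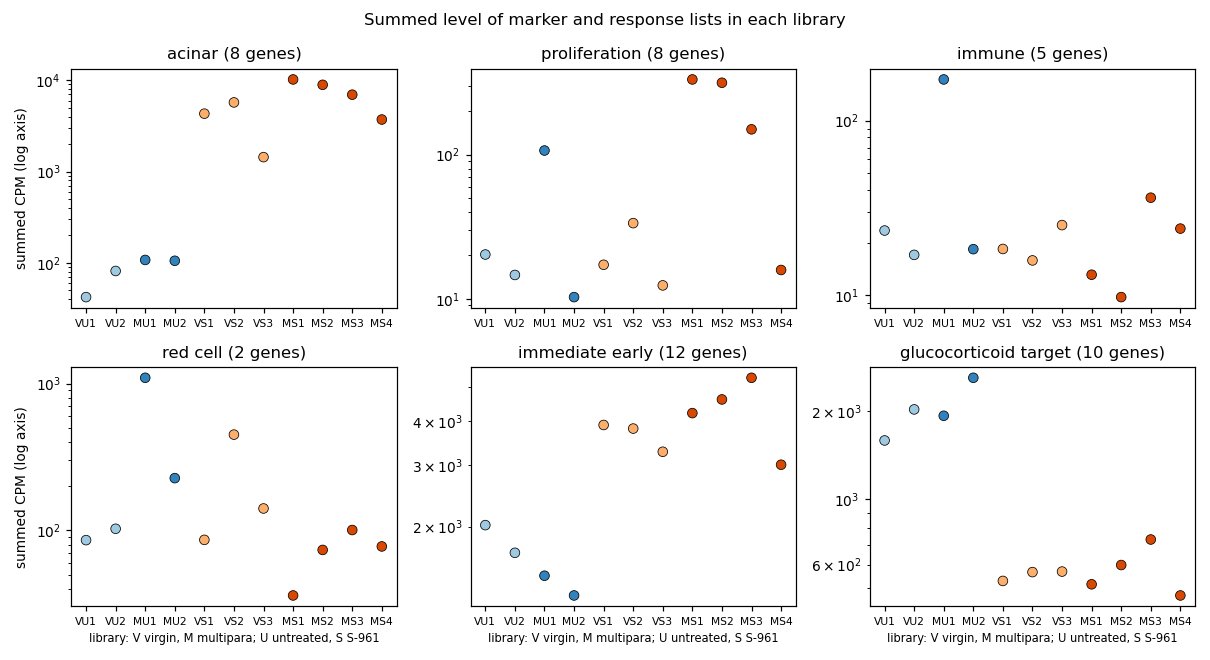
Summed CPM (log axes) of 6 gene lists in each of the 11 libraries, named on the horizontal axis by parity (V virgin, M multipara), treatment (U untreated, S S-961) and replicate number. Acinar and immediate early sums are higher in the 7 S-961 libraries, the glucocorticoid target sum is lower, and the proliferation sum is high in multipara S-961 libraries 1 to 3 and untreated multipara library 1.

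The genes most like Arntl and Dbp over the 11 libraries were listed as a description, by Pearson's r of log2 CPM among 11290 genes with a mean log2 CPM of at least 2. For Arntl these were Pgghg (r = 0.93, Spearman's rho = 0.94), Bcs1l (r = 0.89), Cmpk2 (r = 0.89), Dhrs3 (r = 0.89) and Arl4a (r = 0.88). For Dbp they were Epb41l4a (r = 0.95, rho = 0.90), Ppm1k (r = 0.95), Smim24 (r = 0.94), Grk5 (r = 0.93) and Tle3 (r = 0.93). After centring each group on its mean the values stayed at 0.86 to 0.91 for Arntl and 0.90 to 0.97 for Dbp. Without the 2 libraries farthest from the median, which for Dbp include multipara S-961 library 3, they were 0.84 to 0.97 for Arntl and 0.91 to 0.94 for Dbp. Being the top of a long ranking on shared libraries, these values carry no test.

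Total-count scaling, in which the fall in insulin counts lifts every other gene, moved the median log2 fold change of all genes with S-961 to 0.51 averaged over parity, 0.43 in virgin and 0.61 in multipara. Under it 8839 of 10656 calls were higher against 4704 of 9368 under TMM, with 6409 of 7681 against 3390 of 6562 in virgin and 7787 of 9091 against 3272 of 6768 in multipara. Relative to that median the averaged differences were 1.01 for Clock, 0.99 for Per1, 1.79 for Per2, 0.89 for Nr1d2, -1.28 for Cry2 and -0.90 for Dbp, close to those under TMM. Unadjusted for it, Cry2 was lower by total counts in the average (-0.77, adjusted p = 0.00583) but not called in multipara (-0.41, adjusted p = 0.22), and Dbp was at -0.39 (adjusted p = 0.42).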

How the data were processed

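Bulk RNA-seq of islets used Trizol extraction and the TruSeq Stranded mRNA kit. The authors deposited 1 table of expected counts per library, not normalized, made with STAR and RSEM on GRCm38 (mm10) per the submitters' processing notes; versions and strand setting are not given in the sources used here. Expected counts were rounded. Groups followed the deposited labels. Genes were filtered with filterByExpr (minimum count 10, total 15), scaled by TMM and tested with edgeR 4.0.16 (R 4.3.3) by the quasi-likelihood test with Benjamini-Hochberg adjustment over all genes tested and a threshold of 0.05. S-961 effects and the interaction used all 11 libraries, and parity within a treatment used that treatment's libraries. DESeq2 1.42.0, other scalings, filters and left-out libraries were alternatives. The scripts were tested on simulated data. Gene positions came from GENCODE M21, to which all 55536 identifiers matched. Genes named are the 10 clock genes, members of fixed lists that were called or that overlap a clock gene, Lrrc55 and Mki67 as label checks, the 5 genes most like Arntl and Dbp, and 5 further clock genes that were not called, chosen after their values were seen or named as not tested. The values of 1 gene of the further clock list are not reported here. The clock genes and lists were chosen with earlier results of these data known. Depth of 22028507 to 32234146 counts left 2167 counts over all libraries for Arntl, the lowest of the 10.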

Additional observations from a re-analysis of the deposited data

Results flagged for a closer look

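Within the 4 multipara S-961 libraries, 3 of 52 genes examined had a single library farther from the rest than Dixon's 95% limit, and in each it was library 3. Chance flags about 1 in 20 groups. Dbp was at 52.7 CPM in library 3 against 13.2 to 14.9 CPM in the others, Bhlhe40 at 60.7 CPM against 34.6 to 35.9 CPM, and Tsc22d3, a glucocorticoid target, at 27.0 CPM against 13.3 to 15.2 CPM. Groups of 2 or 3 libraries were too small to be examined in this way.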

How the results depend on the processing

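Over the 10 clock genes and 6 comparisons, alternatives other than leaving out 1 library kept direction and call in 451 cases. They gained a call in 32, lost it in 6 and turned the sign in 21. Among them was leaving out multipara S-961 libraries 3 and 4 together, chosen after their clock gene values were seen. Leaving out 1 library kept direction and call in 491 cases, gained a call in 13, lost it in 15 and turned the sign in 31. With 1 library left out, the clock genes called numbered 5 to 8 for S-961 averaged over parity, 4 to 7 in virgin, 3 to 7 in multipara (3 without untreated multipara library 2), 0 to 1 for parity with S-961, 0 to 1 for parity without S-961, and 0 for the interaction. A lone library left in a group was assumed to vary like the others. In virgin the count of 5 became 9 with only the compared groups in the fit, 8 without both multipara S-961 libraries 3 and 4, and 8 with the replicate number as a block. Whether the numbers pair the samples cannot be told from the libraries. Deviations of same-numbered libraries correlated at 0.01 to 0.28, and those of differently numbered libraries at -0.28 to 0.07. With 2 libraries in each untreated group, the untreated correlations can only be of 1 size with either sign. The block gave 8 called for S-961 averaged over parity, 6 in multipara and 0 in the parity and interaction comparisons. For parity the count of 0 became 1 with S-961 without multipara library 4 and 2 without both, and 1 without S-961 by DESeq2 or without untreated multipara library 2.

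No sign that turned belonged to a called difference, and the causes were not tested. In multipara with S-961, Arntl was 0.39 by total counts, 0.30 under the block and 0.40 without both libraries. For parity with S-961, Clock was 0.0014 by total counts, and without both libraries Per1 was -0.049, Per3 -0.15, Cry2 -0.20 and Dbp -0.098. For parity without S-961, Nr1d1 was -0.030 by total counts and -0.0033 with no filter. For the interaction, Clock was -0.031 with DESeq2 size factors, -0.032 in DESeq2, -0.021 under the block and -0.020 without both. In the same comparison Per3 was -0.30 without both, Cry1 was 0.070 by total counts and 0.0034 with no filter, and Dbp was -0.036 with DESeq2 size factors, -0.038 in DESeq2, -0.092 under the block and -0.75 without both.

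With 1 library left out, Nr1d1 ranged from -0.030 to 0.14 for S-961 in virgin and Arntl from -0.42 to 0.099 in multipara. For parity with S-961, Clock ranged from -0.22 to 0.088, Per1 from -0.014 to 0.22, Per3 from -0.030 to 0.74, Cry2 from -0.14 to 0.22 and Dbp from -0.10 to 0.88. For parity without S-961, Clock ranged from -0.23 to 0.067, Per1 from -0.39 to 0.079, Per3 from -0.081 to 0.34 and Nr1d1 from -0.078 to 0.072. For the interaction, Clock ranged from -0.17 to 0.18, Per3 from -0.18 to 0.58, Cry1 from -0.32 to 0.18 and Dbp from -0.75 to 0.21. Whether depth or the number of libraries limits these values more was not tested.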

Other observations

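Some further clock genes that were not called, named here after their values were seen, separated multipara S-961 libraries 1 and 2 from the other libraries. Npas2, which can stand in for CLOCK, was at 5.07 and 4.83 CPM there and at 0.647 to 2.91 CPM elsewhere. Nfil3, a repressor at D-boxes, was at 52.0 and 60.1 CPM there and at 14.8 to 34.3 CPM elsewhere. Tipin, a partner of Timeless, was at 25.4 and 31.0 CPM there and at 10.3 to 14.8 CPM elsewhere. Tef, a relative of Dbp, was lowest in the same libraries at 42.2 and 35.5 CPM, and highest in library 3 of that group at 79.9 CPM. The share of all genes that separates libraries 1 and 2 in this way was not computed. These libraries also had the highest summed proliferation genes, at 331 and 315 CPM against 10.3 to 150 CPM elsewhere. The part of proliferation in these levels was not tested.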
